A study of Drosophila melanogaster with 2 samples.

Results

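The 300 strongest Eip93F-GFP peaks were the leading members of a list of 3401 reproducible binding sites of the fly transcription factor E93. Peaks were ordered by the signal that the authors' peak caller gave to each site, ties were broken by chromosome arm and then by start, and the first 300 were kept. The other 3101 peaks of the same list served for comparison. Signal chose the members, so signal, peak width and q value are described and were not tested.

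The material was whole Drosophila melanogaster prepupae of pooled sexes, of unknown age, from the strain Eip93F-MiMIC-GFP. In this strain an eGFP exon inserted in an intron of Eip93F gives a fusion protein made from the gene's own locus. Chromatin was sonicated to 200 to 800 bp and precipitated with an antibody against GFP, though one label names the antibody as Eip93F. There were 2 biological replicates of this 1 group, both from a single fly line, and the labels do not say whether they came from separate crosses or days. The authors set the reads against a control alignment, whose genotype is not given in the sources used here. Signal from whole animals mixes all tissues, so a site used strongly in few cells and one used weakly in many cannot be told apart.

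E93 is a DNA-binding protein with a helix-turn-helix domain of the pipsqueak family. It is induced by the steroid hormone ecdysone at the end of larval life and acts during metamorphosis in the remodelling of adult tissues and the removal of larval ones. In the wing it is known to take part in opening and closing regulatory DNA.

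Sequence at the summit, the single base that the caller reported within each peak, is shown for 10 sites to make the results on base composition visible. Each line gives 61 bases centred on the summit from the RefSeq Release 6 genome (build dm6, plus strand). Capitals mark copies, on either strand, of the 8 6-base words that were more frequent at the strongest summits, as tested below. The 5 strongest peaks come first and are named by the protein-coding gene with the nearest transcription start site (TSS). They lay at chr2L:6612687-6612747 (CG11050), chrX:2703871-2703931 (Ugalt), chr2L:481032-481092 (cbt), chr2L:13835416-13835476 (CenG1A) and chrX:2137297-2137357 (ph-p).
CG11050: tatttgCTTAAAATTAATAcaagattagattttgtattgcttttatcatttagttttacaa
Ugalt: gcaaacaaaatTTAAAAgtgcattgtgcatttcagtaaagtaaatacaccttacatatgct
cbt: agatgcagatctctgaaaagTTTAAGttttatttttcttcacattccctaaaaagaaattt
CenG1A: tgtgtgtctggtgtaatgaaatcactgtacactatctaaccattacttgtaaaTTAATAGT
ph-p: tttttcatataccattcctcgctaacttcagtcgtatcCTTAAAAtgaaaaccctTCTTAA
All of these stretches were rich in A and T, with 18% G+C at CG11050, 29.5% at Ugalt, 26.2% at cbt, 31.1% at CenG1A and 32.8% at ph-p.

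The next 5 stretches are strong members that held AACTAT, the word with the smallest p. They lay at chr3R:11760994-11761054 (Lk6), chr3L:21253883-21253943 (CG43218, in an intron of Eip78C), chr3L:9423050-9423110 (aay), chr3L:15508346-15508406 (CG7841) and chr2L:3655729-3655789 (for).
Lk6: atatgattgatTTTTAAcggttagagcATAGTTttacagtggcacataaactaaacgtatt
CG43218: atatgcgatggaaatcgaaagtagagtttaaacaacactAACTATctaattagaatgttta
aay: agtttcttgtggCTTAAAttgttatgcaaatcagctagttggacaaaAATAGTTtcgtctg
CG7841: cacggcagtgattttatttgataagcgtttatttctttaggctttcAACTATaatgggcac
for: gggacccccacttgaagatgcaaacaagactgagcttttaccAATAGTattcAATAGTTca
The word stood on the plus strand at CG43218 and CG7841 and as its reverse complement ATAGTT at Lk6, aay and for.

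The signals of the 300 strongest peaks ran from 281 to 1529 with a median of 377 (quartiles 317 and 467), against 89.8 to 279.7 with a median of 125 for the remaining peaks. The signal is in the caller's own units and is comparable only within a list. The strongest peak had 5.44 times the signal of the peak at rank 300. Just inside the limit lay peaks nearest to Eip74EF, scb and CG45071, all at 281 after rounding. Just outside lay peaks nearest to ex (279.7), Gk1 (279.6) and cact (279), so the limit fell within a continuous slope and marks no break in the list. All members had the same q value, 9.43e-04, the smallest in the list.

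**Figure D1:**
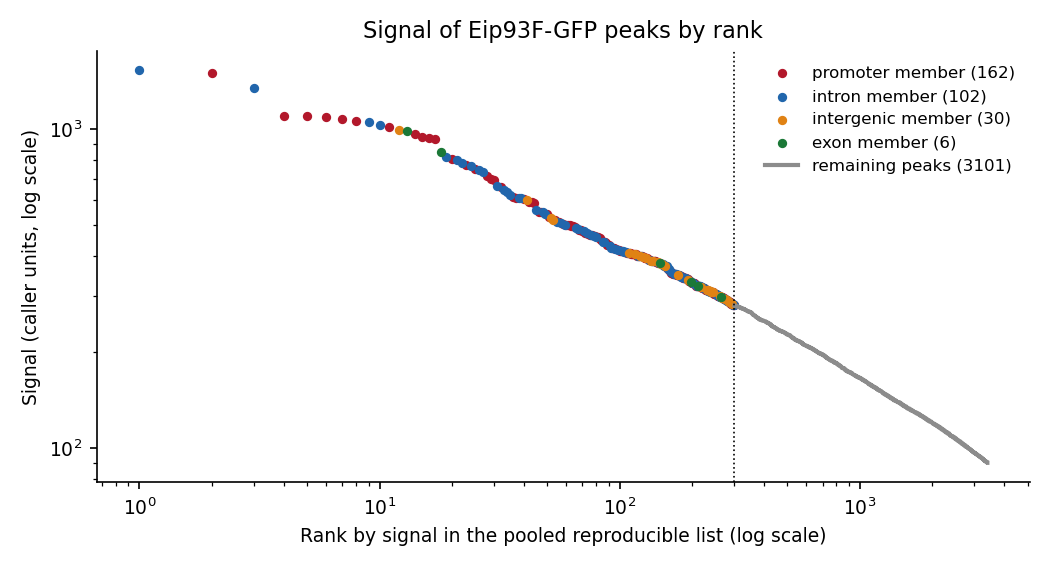
Signal of each reproducible Eip93F-GFP peak (caller units, log scale) against its rank (log scale). Points are the 300 strongest peaks coloured by location class, the grey line is the remaining 3101 peaks, and the dotted line marks the limit; signals run without a step from 281 just inside the limit to 279.7 just outside it.

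The members were narrow where most other peaks had 1 fixed width. Their median width was 242 bp (quartiles 199 and 290.0, range 102 to 559), against 410 bp for the remaining peaks. Exactly 410 bp was the width of 29 of the 300 strongest (9.67%) and of 2858 of the 3101 remaining peaks (92.2%). In all 2887 peaks of 410 bp the summit stood 205 bases after the first base, at the middle of the peak. The widest member, 559 bp, lay at rank 30 in an exon of the long non-coding RNA gene lncRNA:Vinr on chrX:12751018-12751576. The strongest peak, 549 bp wide, was the other member over 410 bp, and 0 of the remaining peaks exceeded that width. The narrowest member, 102 bp, lay at rank 220 in an intron of neb, nearest to the TSS of fok. The summit of a 410 bp peak was thus its midpoint, and for 92.2% of the remaining peaks every distance from the summit below is a distance from that midpoint. How near these midpoints lie to the bound sequence was not tested. Because width moved with rank, the calls on G+C, on position in promoters and on words are also given for peaks narrower than 410 bp, of which 269 were members and 243 were not. Even in that subset ranks differed, with a median rank of 139 for the members and 536 for the others.

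Each replicate's own list was consulted for every member. The peak at CG11050 had 943 in replicate 1 and 595 in replicate 2, in the units of each list. The peak 49 bp upstream of Ugalt, which encodes a transporter of UDP-galactose, had 897 in replicate 1 and 602 in replicate 2. The peak at rank 3, in an intron of ush and 1374 bp upstream of the TSS of the zinc finger gene cbt, had 801 in replicate 1 and 546 in replicate 2. These 3 held the first 3 ranks in both replicates. Over all members with a match, signals had a median of 215 in replicate 1 (48.6 to 943) and 163 in replicate 2 (63.1 to 602).

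Of the 300 strongest peaks, 261 (87.0%) were among the leading 300 entries of replicate 1, 249 (83.0%) among those of replicate 2, and 215 (71.7%) among both. In the leading 600 entries these counts were 297 and 292. Among the remaining 3101 peaks, 1 was in the leading 300 of both replicates. Since pooled reads of both replicates chose the members, these counts are a description. The replicates were also set directly against each other. Of the leading 300 entries of replicate 1, 215 (71.7%) had their summit in a leading 300 entry of replicate 2. Of the leading 300 of replicate 2, 214 (71.3%) had their summit in one of those of replicate 1.

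A few members had a low rank or no match in the list of 1 replicate. A match required the member's summit to lie in a replicate entry, so a weak or missing match does not show absent signal. The promoter peak of Syp, which encodes an RNA-binding protein, ranked 1026 in replicate 1 with a signal of 92.2 and 118 in replicate 2 with 174. The peak near CG6770 ranked 3720 in replicate 1 with 48.6 and 143 in replicate 2 with 166. The second peak nearest to CG1888, at rank 292, ranked 147 in replicate 1 with 216 and 1750 in replicate 2 with 63.1. The promoter member of ogre, a gap junction gene, had no match in replicate 1. An intronic peak in Trl, the gene of GAGA factor, and the peak at GstE13, a glutathione transferase gene, had no match in replicate 2 at ranks 45 and 117 of the pooled list. In replicate 1 they had signals of 324 and 259.9. The pooled signals were 407 at Syp, 333 near CG6770 and 283 at the second CG1888 peak. They were 305 at ogre, 559.6 at the peak in Trl and 405 at GstE13. The part of each replicate in these pooled signals was not tested.

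**Figure D2:**
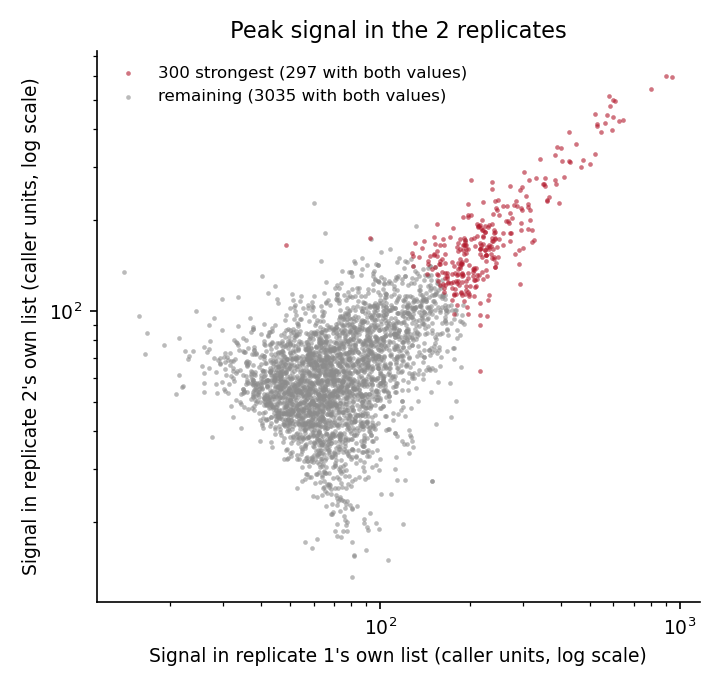
Signal of each peak in the list of replicate 2 against its signal in the list of replicate 1 (caller units, log scales). Red points are the 297 of the 300 strongest peaks with both values and grey points the 3035 remaining peaks with both values; the 3 leading peaks stand at the upper right in both replicates, and CG6770 (48.6 in replicate 1) and the second CG1888 peak (63.1 in replicate 2) stand apart from the other members.

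Ranks 21 to 30 show what strong peaks outside the first 20 looked like. The peak at LPCAT, a lysophospholipid acyltransferase gene, had a signal of 799 and lay in an intron on chrX:9579146-9579446. The peak at Lpin, which encodes a phosphatidate phosphatase of fat metabolism, had 748 and lay 277 bp from the TSS. The peak at aay, the phosphoserine phosphatase gene, had 699 and lay 173 bp from its TSS within the neighbouring gene Atat. These 3 had replicate signals of 449, 429 and 383 in replicate 1 and of 358, 311 and 328 in replicate 2, at ranks of 20 to 32. Introns of 3 nuclear receptor genes of the ecdysone cascade held peaks in the same span: Hr4 with 767, Eip78C with 745 and Eip75B with 734. The Eip75B summit was 12090 bp from the nearest TSS of the gene and that in Hr4 was 9990 bp away. The remaining peaks of this span were nearest to CG16753 (782, in an intron of CG32486), CG9147 (772, with the summit on the annotated TSS), SLC5A11 (714), a gene of the sodium/solute cotransporter family, and CG4004 (692, in lncRNA:Vinr).

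The share of peaks in promoters was higher among the strongest peaks than among the rest, by a difference that did not pass the adjusted threshold. Summits no farther than 500 bp from any annotated TSS were counted as promoter, and each other summit as exon, intron or intergenic by the first class that fitted. Promoters held 162 of the 300 strongest summits (54%, 95% Wilson interval 48.3 to 59.6%) and 1439 of the 3101 remaining ones (46.4%, 44.7 to 48.2%). The difference was 7.6 percentage points, with an odds ratio of 1.36 (1.06 to 1.73; Fisher's exact p = 0.013, adjusted p = 0.0648 over 10 location tests). With 1000 bp in place of 500 bp it was 9.21 points and passed (Fisher's exact adjusted p = 0.0105). It also passed with the 600 strongest peaks, at 6.79 points (0.0127). It did not pass with 250 bp (6.42 points, 0.165), protein-coding TSSs alone (6.86, 0.121) or the 100 strongest peaks (12.3, 0.0717). Nor did it pass with the leading entries of replicate 1 alone (5.85, 0.177) or replicate 2 alone (7, 0.0733). Introns held 102 of the strongest (34%) and 1225 of the remaining summits (39.5%). Intergenic sequence held 30 of the strongest (10%) and 337 of the remaining summits (10.9%), and exons held 6 of the strongest (2.00%) and 100 of the remaining ones (3.22%). For these 3 classes Fisher's exact adjusted p ran from 0.211 to 0.708.

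The strongest peak of each class was that in CG11050 for introns (1529), at Ugalt for promoters (1495), 11905 bp from CG13323 for intergenic sequence (994) and in osa for exons (986). The osa summit fell in an exon of lncRNA:CR46035, a long non-coding RNA gene that overlaps an intron of osa. Median signals of the members were 385 in promoters, 372 in introns, 361 in intergenic sequence and 355 in exons, and the ranges of all 4 classes overlapped. Of the 162 promoter members, 74 had their summit between genes, 55 in an intron and 33 in an exon. Of the 102 intronic members, 83 lay inside the gene whose TSS was nearest.

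The other location measures did not pass the threshold. The X held 58 of the strongest summits (19.3%) and 539 of the remaining ones (17.4%; Fisher's exact adjusted p = 0.547). Among promoter peaks, start sites of protein-coding genes on both strands lay within 500 bp for 41 of 162 members (25.3%) and 420 of 1439 remaining peaks (29.2%; Fisher's exact adjusted p = 0.526). Another summit of the list lay within 5000 bp of 187 members (62.3%) and of 1823 remaining peaks (58.8%; Fisher's exact adjusted p = 0.526). That difference was 8.38 points and passed with the leading entries of replicate 1 alone (Fisher's exact adjusted p = 0.0244), and was −2 points with those of replicate 2 alone (adjusted p = 0.566). A tRNA gene lay within 500 bp of 2 members and 19 remaining peaks (Fisher's exact adjusted p = 0.708). Repeat-masked bases were present within 50 bp of 215 members (71.7%) and 2280 remaining summits (73.5%; Fisher's exact adjusted p = 0.618). Chromosome 4 held 0 of the 300 strongest summits, which allows a share of up to 1.00% (3 counts of 300; the Wilson upper limit is 1.26%), and 8 of the remaining ones. On the other arms the members numbered 61 on 2L, 57 on 2R, 62 on 3L and 62 on 3R, or 1.93 to 2.59 per Mb including the X.

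Inside promoters the strongest summits stood farther upstream of the start site. This measure and the next were chosen after the data had been seen, together with the one on G+C against flanks below, and were adjusted over these 3. The nearest TSS lay downstream of the summit for 138 of 162 promoter members (85.2%) and for 1056 of 1439 remaining promoter peaks (73.4%; Fisher's exact adjusted p = 8.16e-04). The summit lay within 100 bp of that TSS for 30 members (18.5%) and 573 remaining peaks (39.8%; Fisher's exact adjusted p = 7.15e-08). The median position was 142 bp upstream for the members and 92 bp upstream for the remaining peaks. The 100 bp from 200 to 100 bp upstream held 33 and 42 member summits in their successive 50 bp steps, and the 50 bp on either side of the TSS held 4 and 2.

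Both differences in position were smaller among narrow peaks. Of promoter peaks narrower than 410 bp, 84.7% of 144 members and 74.7% of 87 remaining peaks had the summit upstream. Within 100 bp of the TSS were 19.4% of these members and 28.7% of these remaining peaks. Both comparisons gave a Fisher's exact adjusted p of 0.109, so neither call held in that subset. With the leading entries of replicate 2 alone, the difference in the share upstream was 3.41 points, against 11.8 in the pooled list (Fisher's exact adjusted p = 0.388). The difference in the share within 100 bp was −11.1 points there, against −21.3 in the pooled list (Fisher's exact adjusted p = 0.00896).

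**Figure D3:**
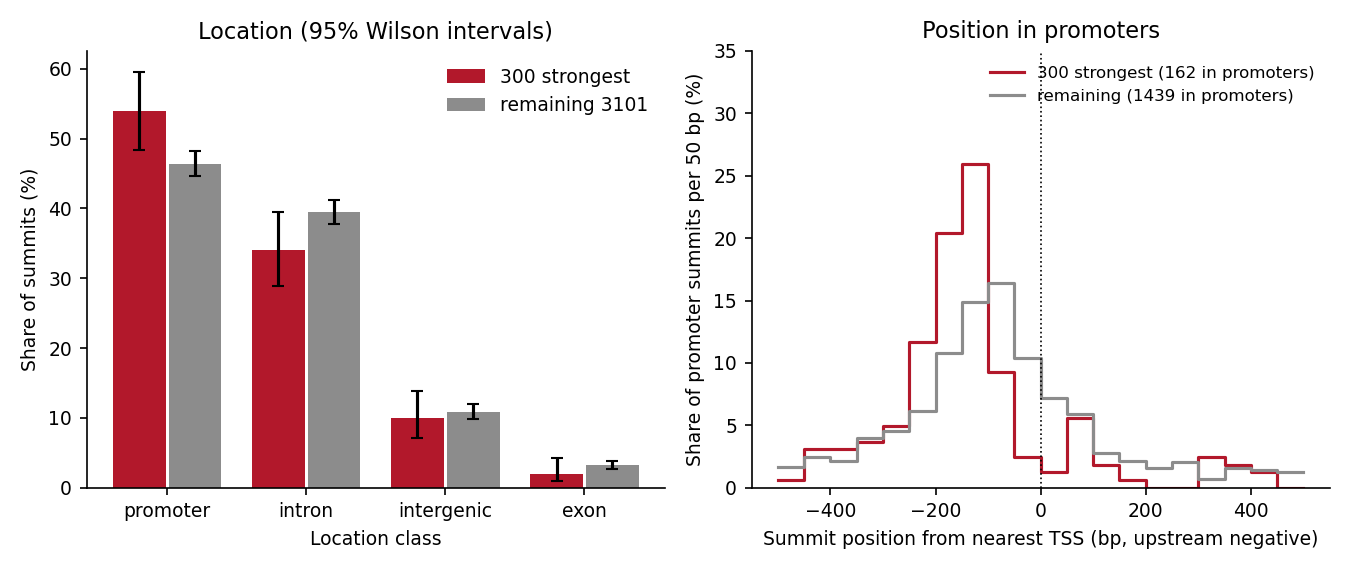
Left, share of summits (%) in each location class for the 300 strongest (red) and the remaining 3101 peaks (grey), with 95% Wilson intervals. Right, share of promoter summits (%) per 50 bp against position from the nearest TSS in bp; the 162 strongest promoter summits are most frequent 100 to 200 bp upstream and sparse within 50 bp of the TSS, where the 1439 remaining ones are not.

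The strongest summits were poorer in G and C than the rest. Within 50 bp of the summit, median G+C was 31.7% for the strongest peaks (quartiles 26.7 and 36.6%) and 35.6% for the remaining ones (28.7 and 43.6%), where the 5 arms that hold the members have 41.6 to 42.6% over their whole length. G+C exceeded 50% at 8 of the 300 strongest summits (2.67%, Wilson interval 1.36 to 5.17%) and at 294 remaining summits (9.48%, 8.50 to 10.6%). The odds ratio was 0.262 (0.111 to 0.53; Fisher's exact adjusted p = 1.04e-04). In promoters it did so at 6 of 162 members (3.70%) and 145 of 1439 remaining peaks (10.1%), and outside them at 2 of 138 members (1.45%) and 149 of 1662 remaining peaks (8.97%). Among peaks narrower than 410 bp the counts were 5 of 269 members (1.86%) and 12 of 243 remaining peaks (4.94%), which did not pass (Fisher's exact p = 0.0811). Median G+C in that subset was 30.7% for the members and 31.7% for the remaining peaks. The difference in this share was −6.81 points. With the leading entries of replicate 2 alone it was −4.99 and did not pass (Fisher's exact adjusted p = 0.05 after rounding). With those of replicate 1 alone it was −4.6 and passed (0.0244).

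The low G+C was local to the summit. In 51 bp windows the strongest peaks had a mean of 30.8% ± 0.575 (SE over 300 peaks) at the summit, and 46.1% and 45.2% at 200 bp to the left and right. The remaining peaks had 35.4% ± 0.214 (SE over 3101 peaks) at the summit, and 41.8% and 42.3% at the same distances. Compared in windows of 50 bp on either side of a centre, G+C at the summit was lower than that 200 bp away on both sides at 224 of the 300 strongest peaks (74.7%) and at 1558 remaining peaks (50.2%; Fisher's exact adjusted p = 5.21e-16). In promoters the mean at the summit was 31.4% for the strongest and 34.7% for the remaining peaks, and outside promoters it was 30% for the strongest and 36% for the remaining peaks. Among peaks narrower than 410 bp the mean at the summit was 30.3% for the members and 31.7% for the remaining peaks, and the summit was lower than both flanks at 76.2% of 269 members and 69.1% of 243 others (Fisher's exact adjusted p = 0.109).

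**Figure D4:**
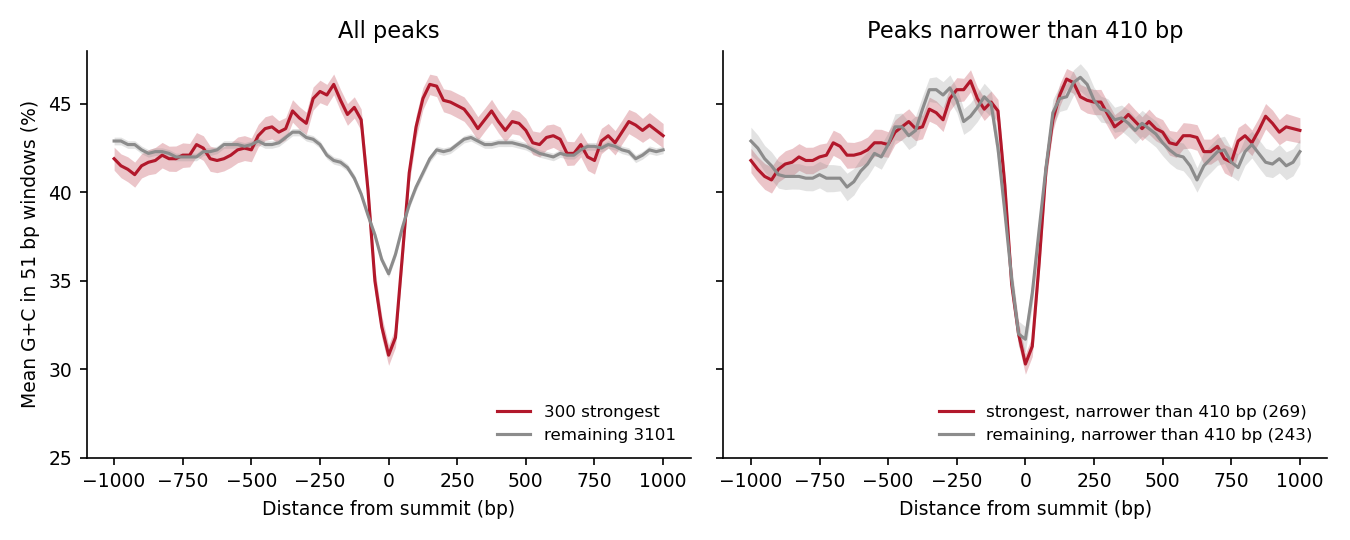
Mean G+C (%) in 51 bp windows against distance from the summit in bp, for the 300 strongest (red) and the remaining peaks (grey), with bands of 1 SE over peaks. Left, all peaks, with summit means of 30.8% for the strongest and 35.4% for the remaining; right, peaks narrower than 410 bp, with 30.3% for the strongest and 31.7% for the remaining.

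Words made mostly of A and T were more frequent within 50 bp of the strongest summits. All 6-mers were counted with their reverse complements, and 9 of them (0.433% of those tested) passed an adjusted p of 0.05, of which 8 (0.385%) were higher at the strongest summits and 1 was lower. Without adjustment, 229 had a p under 0.05. The leading word, AACTAT, was present at 46 of the 300 strongest summits (15.3%) and at 212 of the remaining ones (6.84%; Fisher's exact adjusted p = 0.00352). In windows 500 bp away its share was 4.83% beside the strongest and 5.22% beside the remaining summits. It was present at 14.2% of the strongest and 7.85% of the remaining promoter summits, and outside promoters at 16.7% of the strongest and 5.96% of the remaining summits. The difference of 8.5 points passed in 4 of 10 alternatives. It was 4.93 points with the leading entries of replicate 2 alone, where the call was lost (Fisher's exact adjusted p = 0.355), and 8.25 points with those of replicate 1 alone (0.00116).

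The other words that passed were close relatives by composition. CTTAAA was present at 59 of the strongest summits (19.7%) and 330 of the remaining ones (10.6%; Fisher's exact adjusted p = 0.00852). With the same adjusted p, ATTAAA was at 35.3% of the strongest and 23.6% of the remaining summits, AAATAT at 42% of the strongest and 29.7% of the remaining, and TTAAAA at 38% of the strongest and 26.3% of the remaining. TATTAA was at 29.3% of the strongest and 19.2% of the remaining summits (Fisher's exact adjusted p = 0.017). AATAGT was at 13.7% of the strongest and 6.87% of the remaining (0.0201), and TCTTAA at 14.7% of the strongest and 7.58% of the remaining summits (0.0212). These words overlap each other, so they are not separate findings. Among joined forms, AATAGTT was at 6.33% of the strongest and 2.93% of the remaining summits, and CTTAAAA at 9.67% of the strongest and 4.42% of the remaining. TCTTAAA was at 6.00% of the strongest and 3.03% of the remaining, and TATTAAA at 16% of the strongest and 9.29% of the remaining summits. At least 1 of the 8 words was present at 242 of the strongest (80.7%) and 1898 of the remaining summits (61.2%). The 1 word that was lower, GAGCGA, was found at 2 of the strongest (0.667%) and 170 of the remaining summits (5.48%; Fisher's exact adjusted p = 0.00852).

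The 6-mers were also grouped by composition. Of the 36 words with no G or C, 32 had the higher share at the strongest summits, as did 163 of the 192 with 1 such base. Of the words with 4 G or C bases, 120 of 492 did, and of those made of G and C alone, 5 of 36. The part of base composition in the calls for single words was not tested.

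The places of AACTAT were followed by distance from the summit and by rank. Its copies numbered 1.73 per kb of summit sequence within 25 bp of the strongest summits and 1.6 from 25 to 50 bp, against 0.742 and 0.787 at the remaining ones. From 100 to 200 bp away there were 0.333 per kb beside the strongest and 0.527 beside the remaining summits. Within the 300 strongest, successive blocks of 100 held it at 15, 15 and 16 summits. Among the next 300 peaks its share was 7.67%, and at the end of the list, after rank 3300, it was 2.97%. CTTAAA instead was present at 28, 17 and 14 summits of the successive 100, and both words were together at 10 of the strongest and 39 of the remaining summits. These steps are descriptions of a word chosen for its difference.

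These word calls depended on the setting. No 6-mer passed when peaks narrower than 410 bp were compared alone, when promoter peaks were, or when words were counted within 25 bp of the summit. With the 100 strongest peaks 2 words were called higher, and outside promoters 3 were, of which 2 were among the 8 named here. With the leading entries of replicate 2 alone 4 words were called higher, and with those of replicate 1 alone 8 were. In each of these replicate lists 3 of the words called were among the 8 named here. GAGCGA and TATTAA passed in 1 of 10 alternatives each. GAGCGA was called with neither replicate alone. The same held for TATTAA (Fisher's exact adjusted p = 0.355 with replicate 2 alone and 0.205 with replicate 1 alone). It also held for AAATAT (0.175 and 0.119 in that order) and for TCTTAA (0.143 and 0.0813). Of the 8 higher words, only CTTAAA was called with each replicate alone (0.0282 and 0.00116).

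**Figure D5:**
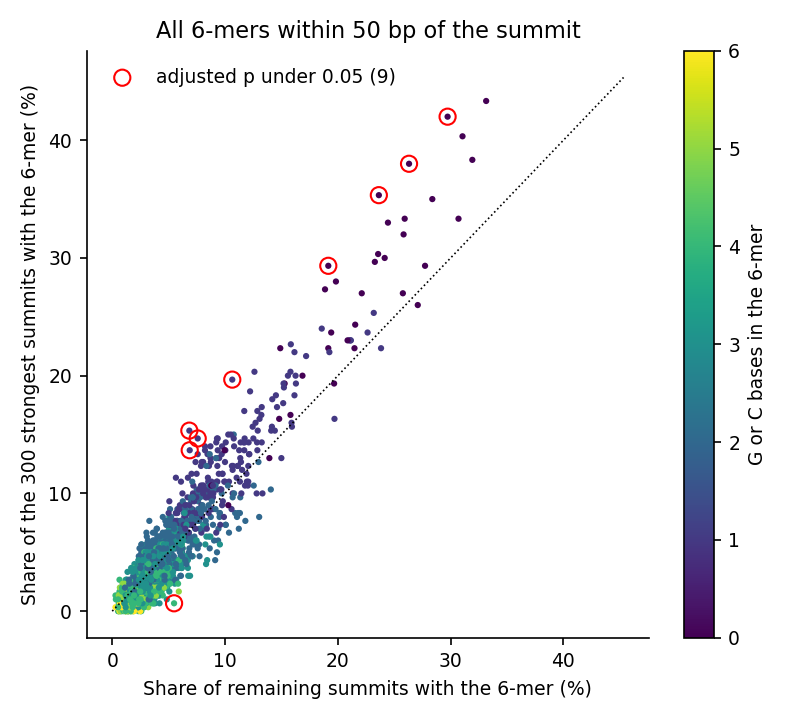
Share of the 300 strongest summits (%) against share of the 3101 remaining summits (%) that hold each 6-mer within 50 bp, coloured by the number of G or C bases. Red rings mark the 9 words with a Fisher's exact adjusted p under 0.05, of which 8 lie above the dotted line of equal shares and 1, GAGCGA, lies below it.

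Of 23 words known from fly promoters and transcription factors, 0 (0%) passed Fisher's exact test after adjustment, and 4 had an unadjusted p under 0.05. Among peaks narrower than 410 bp, 0 passed as well. All 4 had the lower share at the strongest summits. GATAAG, the core recognised by GATA factors, was present at 20 of the strongest (6.67%) and 321 of the remaining summits (10.4%; Fisher's exact adjusted p = 0.284). GAGAG, bound by GAGA factor, was at 8.33% of the strongest and 12.3% of the remaining summits. CACACA was at 5.67% of the strongest and 9.55% of the remaining, and CATCNCTA, a core promoter word, at 0% of the strongest and 1.42% of the remaining summits. Counted within 100 bp of the summit, GATAAG was at 9.67% of the strongest and 18.2% of the remaining peaks (Fisher's exact adjusted p = 0.00273) and CGATA at 21% of the strongest and 29.7% of the remaining ones (0.0154). Within 50 bp, the TATA word TATAAA was at 22.3% of the strongest and 21.5% of the remaining summits (Fisher's exact adjusted p = 0.864). The nuclear receptor word AGGTCA was at 1.67% of the strongest and 1.71% of the remaining summits (Fisher's exact adjusted p = 1). Each word was searched on both strands, and a match or its absence says nothing of which factor binds.

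Each member was linked to the protein-coding gene with the nearest TSS, which describes position and names no target. The 300 strongest peaks were nearest to 272 of 13945 genes (1.95%), and the remaining peaks to 1967 (14.1%). Both kinds shared 144 genes, or 52.9% of the genes of the members. In all, 27 genes were nearest to 2 or more members. The gene shn, which encodes a zinc finger protein of Dpp signalling, had 3, the stronger pair with signals of 377 and 373. The genes cbt (1342 and 341), ph-p (1097 and 423), CG1888 (1094 and 283), CG4004 (848 and 692) and CG11362 (815 and 288) had the strongest pairs, with CG32772 (1051 and 384). The nuclear receptor gene Hr4 had 767 and 375, the kinase gene Tlk 644 and 311, and the ecdysone receptor coactivator gene tai 623 and 341. Of the others, Ptpmeg2, CG43389, tara, fok, CG9663, sbb, Btk, for, pdgy, CHES-1-like, CG18404, CG42327, CG8034, Pli, egh and l(2)k01209 had 2 members each, with signals from 282 to 605. There were 25 pairs of neighbouring members within 5000 bp of each other and 6 within 1000 bp. The closest pairs lay 201 bp apart at CG11362 and 209 bp apart at CG9663.

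Genes of the ecdysone response were nearest to members at 5 of 33, or 15.2%, beside 1.95% of all genes. They were Hr4, Eip75B and tai, described above, with E23 and Eip74EF. E23, which encodes an ecdysone-induced transporter of the ABC family, had a promoter peak with a signal of 417, and 224 in replicate 1 and 191 in replicate 2. Eip74EF, the gene of an early ecdysone-induced ETS factor, had an intronic peak near the end of the members with 281, and 128 in replicate 1 and 156 in replicate 2. The Hr4 and tai summits were richer in G+C than most members, at 48.5% and 50.5%. The remaining peaks were nearest to 21 of these 33 genes (63.6%), beside 14.1% of all genes. Of the genes of metamorphic timing and juvenile hormone, Syp was the 1 of 19 (5.26%) nearest to a member. The remaining peaks were nearest to 13 of these 19 genes (68.4%), beside 14.1% of all genes. No test was made of any gene list, and longer genes and genes with more start sites have more chances to be nearest to a summit.

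Glycolysis genes were nearest to members at 4 of 18 (22.2%), beside 1.95% of all genes, and all 4 peaks lay in promoters. The remaining peaks were nearest to 6 of the 18 (33.3%), beside 14.1% of all genes. Gapdh2, glyceraldehyde-3-phosphate dehydrogenase, had a signal of 942, with 529 in replicate 1 and 416 in replicate 2. Eno, enolase, had 385, with 217 in replicate 1 and 166 in replicate 2. Hex-A, hexokinase, had 349.5 (228 in replicate 1 and 131 in replicate 2), and Ldh, lactate dehydrogenase, had 296 (167 in replicate 1 and 129 in replicate 2). The 4 summits lay 160 to 218 bp from the TSS, with G+C from 19.8% to 25.7%.

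Genes of chromatin regulators included members of the Polycomb and trithorax groups, which keep genes silent or active through cell divisions. Of 22 Polycomb group genes, 2 were nearest to a member, ph-p (1097, promoter) and Psc (387, intron), which both encode subunits of Polycomb repressive complex 1. Of 30 trithorax group genes, 3 were: osa (986), brm (408, promoter) and trx (328, intron). The genes osa and brm encode subunits of the Brahma remodelling complex, and trx a histone methyltransferase. Of 19 genes of insulator and architectural proteins, 1 was, Chro (1073), which encodes a chromodomain protein. The members were thus nearest to 9.09% of the Polycomb group, 10% of the trithorax group and 5.26% of the insulator genes, beside 1.95% of all genes. The remaining peaks were nearest to 31.8% of the Polycomb group, 40% of the trithorax group and 21.1% of the insulator genes, beside 14.1% of all genes.

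Signalling genes included several of developmental pathways. Of 41 genes of Notch, Dpp, Hedgehog and Wingless signalling, 5 were nearest to a member: shn, fz2 (352), a Wingless receptor gene, sgg (349), the glycogen synthase kinase 3 gene, Dll (328), a homeodomain gene of the limbs, and brk (318), a repressor gene of the Dpp pathway. The Dll peak had the highest G+C of all members, 68.3%. The fz2 summit was 23639 bp from the TSS, and the brk summit lay in introns of CG1677 and lncRNA:CR44357. Of 31 genes of Ras, JNK and JAK-STAT signalling, 4 were: the kinase gene Raf (441), the Fos gene kay (386), the kinase gene msn (364) and the receptor gene Egfr (311). Of 6 genes of GATA factors and a partner, ush was nearest to a member at rank 143 (384). The members at ranks 3 and 186 also lay in ush but were nearer to the TSS of cbt. The members were nearest to 12.2% of the Notch, Dpp, Hedgehog and Wingless list, 12.9% of the Ras, JNK and JAK-STAT list and 16.7% of the GATA list, beside 1.95% of all genes. The remaining peaks were nearest to 58.5% of the Notch, Dpp, Hedgehog and Wingless list, 51.6% of the Ras, JNK and JAK-STAT list and 83.3% of the GATA list, beside 14.1% of all genes.

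Lists of growth and cell physiology are set beside the same 1.95% of all genes. Translation factors had 3 of 39, Lk6 (1034), a kinase of initiation factor eIF4E, eEF1gamma (934) and eIF6 (393). The eEF1gamma summit was 5737 bp from the TSS of that gene and 127 bp from that of lncRNA:CR31044. Heat shock and chaperone genes had 2 of 28, Hsp27 (1013) and Hsp83 (302). Insulin and TOR genes had 2 of 30, REPTOR (458), a transcription factor of the TOR response, and scyl (309), an inhibitor of TOR signalling. Cell death genes had 2 of 22, the activator hid (310.4) and the inhibitor Diap1 (296), both between genes. The remaining peaks were nearest to 20.5% of the translation, 39.3% of the heat shock, 46.7% of the insulin and TOR and 40.9% of the cell death genes, beside 14.1% of all genes. Single genes came from the cell cycle (1 of 37, CycB, 308), the clock (1 of 17, sgg) and the fat body (1 of 26, Lpin). Of 24 neuronal genes 1 was nearest to a member, elav (392), whose peak lay inside arg. No gene was nearest to a member among 25 autophagy, 8 Hox, 29 muscle and 30 cuticle and chitin genes, where the share over all genes was 1.95%. Of these lists, the remaining peaks were nearest to 24% of the autophagy, 12.5% of the Hox, 20.7% of the muscle and 16.7% of the cuticle and chitin genes. Over the 521 genes of the 21 lists, 38 were nearest to a member, beside 272 of all 13945 genes. With any gene that held the summit or lay within 1000 bp of it, 45 listed genes were linked, beside 374 of all 13945 genes. Both rules found 33 of the listed genes.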

How the data were processed

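Eip93F-GFP was measured by chromatin immunoprecipitation and sequencing in 2 biological replicates of whole prepupae. Per the notes deposited with the files, the authors called peaks in each replicate and in both pooled, against a control alignment, and derived the reproducible list from these lists. Per the file names, reproducibility was set by the irreproducible discovery rate on builds dm6 and dm3. Neither the aligner nor the caller is named in the files or labels used here. Each deposited entry holds a signal in the caller's units, a q value on the −log10 scale and the offset of the summit, all as the authors' caller gave them. The files hold no counts of reads, and library depths are unknown. The notes refer to signal tracks and alignments, which were not used here.

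Coordinates are 1-based on dm6. Gene models were those of Ensembl release 115 for this assembly, leaving out transposable elements. Bases came from the RefSeq Release 6 genome, whose lower case marks masked repeats. A peak matched a replicate entry when its summit lay in that entry. Shares of peaks were compared by Fisher's exact test, two-sided, with Benjamini-Hochberg adjustment over the 10 location tests, the 23 preset words or all 6-mers, at a threshold of 0.05. Peaks are sites and not biological replicates, so these p-values describe this list, and Wilson intervals (95%) cover counting error only. Of the tests, only that of 6-mers was checked on simulated data. The simulated strongest and remaining windows had the same base composition, so the check does not cover their difference in G+C. Statistics used Python 3.11.15, numpy 2.4.6, pandas 2.3.3 and scipy 1.17.1.

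The members, gene lists, words and tests were chosen with earlier results of these data known. Peaks were named by rank (1 to 3, 21 to 30 and the 3 on each side of the limit), as the strongest of a class, as the widest or narrowest, or as unmatched or ranked below 1000 in a replicate. Genes were named when nearest to 2 or more members or when on 1 of the 21 lists and nearest to a member. A gene that met this rule is not reported here. For 6-mers, those called were named.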

Additional observations from a re-analysis of the deposited data

Results flagged for a closer look

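Strong entries were present outside the reproducible dm6 list, though some of them overlapped a listed peak. Entries of this kind on the arms entered the comparisons with 1 replicate alone and no other comparison. In the reproducible list on build dm3, 2 of the leading 300 entries lay on the mitochondrial genome, at ranks 4 and 33 with signals of 1116 and 658. Of the leading 300 entries of replicate 1 on dm6, 3 had their summit in no reproducible peak, the highest at rank 142 with a signal of 218 near CG5854. Another of these 3, at rank 280 near CG34460 (168), overlapped a reproducible peak without having the summit in it. Of the leading 300 entries of replicate 2, 5 did, the highest at rank 4 on the mitochondrial genome with a signal of 529.8. The others of replicate 2 were nearest to CG5854 (179.6), cbt (168), Oatp30B (137) and Ldh (129), and those nearest to cbt, Oatp30B and Ldh each overlapped a reproducible peak without having the summit in it. No control list was among the files used here.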

How the results depend on the processing

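No paired analysis was possible because there is 1 group. Values are the share at the strongest minus that at the remaining peaks, in percentage points, with Fisher's exact adjusted p. With the 100 strongest, G+C majority was −7.09 (0.0717), masked bases 2.72, upstream summits 8.8 (0.169), summits within 100 bp of the TSS −12.7 (0.0823), and 2 words were called higher and 0 lower. With the 600 strongest, promoters were 6.79 (0.0127), introns −5.89 (0.0249), intergenic sequence 0.254 and masked bases 2.19, with 16 words higher, 2 lower and 1 preset word called. Promoters of 1000 bp gave 9.21 (0.0105), with introns at −7.53 (0.0246). Promoters of 250 bp gave 6.42 (0.165) for the promoter share and 0.573 for divergent promoters. Protein-coding TSSs alone gave 6.86 (0.121) for the promoter share and 0.359 for intergenic sequence, and tRNA genes within 2000 bp gave −0.559. Windows of 25 bp gave masked bases 2.07 and 0 words higher or lower, and windows of 100 bp 5 higher and 2 preset words. Promoter peaks alone gave 0 words higher and 0 lower, and peaks outside promoters 3 and 0. Peaks narrower than 410 bp, chosen after seeing the data, gave G+C majority −3.08 (Fisher's exact p = 0.0811, not adjusted). They also gave upstream summits 10, summits within 100 bp −9.29 and summits below both flanks 7.07 (each of these 3 0.109). In that subset 0 words were called in either direction. The cause of these changes was not tested.

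Using the list of 1 replicate alone gave a lowest and a highest value of −0.62 and 1.35 for intergenic sequence, −0.568 and −0.107 for tRNA genes, −2 and 8.38 (0.0244) for neighbours, −4.99 (0.05) and −4.6 (0.0244) for G+C majority, and 3.41 (0.388) and 11 for upstream summits. The G+C majority value of −4.99 did not pass the threshold. Words called higher numbered 4 and 8, of which 3 in the list of replicate 1 were among the 8 called in the pooled list, and words called lower 0 and 0.

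Apart from single words, 73 values were counted as unchanged. Among the others, 11 shares reversed direction, 9 no longer passed the threshold, 5 newly passed it, and 18 counts moved. For tested shares, unchanged means the same direction and side of the threshold. For counts of words and of listed genes it means a similar number. For median width it means a shift smaller than the SD over members. For the 9 called words, each in 10 alternatives, 27 values kept the call, 63 lost it and 0 reversed. Leaving out peaks within 1000 bp of a stronger one, also chosen after seeing the data, kept 294 members and changed no call on location or G+C majority. Peak lists give no depth.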
